A study of Mus musculus with 24 samples.

Results

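Ribosome footprints on 10 genes of antigen presentation were followed in mouse liver. The genes are B2m, H2-K1, H2-D1, Tap1, Psmb8 and Psmb9 of the class I pathway and Cd74, H2-Aa, H2-Ab1 and H2-Eb1 of the class II pathway. They were chosen by name from the 22429 genes of the count table, and all 10 were among the 12211 genes that passed the filter on low counts. Footprints are the stretches of mRNA that ribosomes protect from nuclease digestion, so their number follows both the amount of an mRNA and how often it is translated, and these were not separated here. The 24 libraries came from livers of male F1 hybrids of C57BL6J and FVBN, in 6 groups of 4. The mutants, labelled Ercc1 d/-, carried a null and a truncated allele of Ercc1, a subunit of a DNA repair nuclease, in all cells, and such mice age early. The groups were mutants of 16 weeks on dietary restriction, ad libitum mutants of 16 and of 7 weeks (fed mutants), wild types of 16 weeks on dietary restriction, and ad libitum wild types of 104 and of 16 weeks (fed wild types). Restriction began at 7 weeks and was raised in steps to 30%. All mice were housed singly on the same synthetic diet, and food was withheld on the day of collection. No wild types of 7 weeks were among the libraries, so growth and ageing of the mutants between 7 and 16 weeks cannot be told apart.

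Class I molecules display peptides from inside the cell to killer T cells and are made by nearly every cell, hepatocytes included. The proteasome cuts proteins into peptides, and Psmb8 and Psmb9 are catalytic subunits that replace constitutive ones in the immunoproteasome after interferon exposure. Tap1 is 1 of the 2 chains of the transporter that carries the peptides into the endoplasmic reticulum, where they are loaded on a heavy chain, such as H2-K1 or H2-D1, bound to the light chain B2m. Class II molecules display peptides from endocytosed material to helper T cells and are made mainly by macrophages, dendritic cells and B cells. H2-Aa and H2-Ab1 are the alpha and beta chain of one class II molecule, H2-Eb1 is the beta chain of another, whose alpha partner is defective in C57BL/6, and Cd74, the invariant chain, occupies their groove until they reach the endosome. The transactivators Nlrc5 for class I and Ciita for class II bind through a shared set of promoter boxes.

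Of the members, B2m lies on chromosome 2 (GRCm38.p6, chr2:122147687-122153082) and Cd74 lies outside the major histocompatibility complex too, while the other 8 lie in it, on chromosome 17. Promoter sequences from RefSeq for that build were matched by symbol to 8 of the 10 members, all but H2-Ab1 and Cd74. They cover 250 bases before to 50 bases after a start, which for the stretches shown is the gene start except for H2-K1. H2-K1 has windows beginning at 34000298 and at 34000284, and the one at 34000298 was used. Both lie inside the annotated gene, chr17:33996012-34000619 on the minus strand. The class I heavy chains and B2m are shown first because they form one molecule and did not share one pattern of footprints over the groups. Capitals mark 3 motifs searched on both strands: GGGGATTCC, bound by NF-kappaB factors, the interferon motif bound by interferon regulatory factors, either its core of GAAA repeated after 2 bases of any kind or its left part of AGTTTC followed after 2 bases by TT, and CCAAT, bound by NF-Y. The stretches are H2-K1 at chr17:34000322-34000468 on the minus strand, H2-D1 at chr17:35262913-35263059 on the plus strand and B2m at chr2:122147517-122147656 on the plus strand.
H2-K1: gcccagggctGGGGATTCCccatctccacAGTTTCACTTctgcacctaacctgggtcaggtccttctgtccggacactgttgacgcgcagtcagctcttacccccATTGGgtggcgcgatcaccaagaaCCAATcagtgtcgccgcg
H2-D1: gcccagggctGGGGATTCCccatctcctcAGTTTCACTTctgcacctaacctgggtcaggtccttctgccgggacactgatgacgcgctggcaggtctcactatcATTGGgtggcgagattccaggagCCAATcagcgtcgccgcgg
B2m: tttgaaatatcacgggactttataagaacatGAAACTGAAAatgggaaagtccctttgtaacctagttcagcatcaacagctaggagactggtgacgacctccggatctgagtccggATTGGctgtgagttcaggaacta
The H2-K1 and H2-D1 stretches were 87.8% identical over 148 aligned positions. Both hold the NF-kappaB motif, which 0.25% of all 32851 promoter windows hold, and the left interferon motif, which 1.72% hold. B2m holds the core interferon motif, found in 3.44% of windows, but not that form of the NF-kappaB motif. CCAAT, in 37.4% of windows, occurs in all 3 promoters.

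Psmb8 and Psmb9 are shown next because they were the class I members that differed most between groups. Psmb9 and Tap1 are transcribed away from each other with 225 bases between their starts, so that 275 bases are common to both promoter windows; they are written on the strand of Psmb9, chr17:34187306-34187580. The Psmb8 stretch, chr17:34198055-34198244, is on the plus strand. Capitals mark CCAAT, the GC box GGGCGG, found in 35.7% of windows, and TTCNNNGAA, the form bound by STAT factors, found in 8.30%.
Psmb9: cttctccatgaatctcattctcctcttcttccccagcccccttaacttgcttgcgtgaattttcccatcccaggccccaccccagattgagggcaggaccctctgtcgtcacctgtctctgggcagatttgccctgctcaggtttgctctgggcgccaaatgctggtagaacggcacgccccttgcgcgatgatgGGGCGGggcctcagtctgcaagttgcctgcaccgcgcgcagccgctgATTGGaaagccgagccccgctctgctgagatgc
Psmb8: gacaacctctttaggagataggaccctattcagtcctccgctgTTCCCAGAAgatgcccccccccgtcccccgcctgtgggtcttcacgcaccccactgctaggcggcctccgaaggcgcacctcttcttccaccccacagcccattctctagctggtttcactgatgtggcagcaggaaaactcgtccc
For class II, the stretches of H2-Aa (chr17:34287849-34287923, minus strand) and H2-Eb1 (chr17:34305767-34305841, plus strand) just before the gene start are shown, with CCAAT and TGACGTCA in capitals. TGACGTCA, bound by CREB factors and found in 1.79% of windows, occurs in the H2-Aa stretch.
H2-Aa: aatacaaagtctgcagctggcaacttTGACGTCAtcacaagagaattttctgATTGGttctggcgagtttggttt
H2-Eb1: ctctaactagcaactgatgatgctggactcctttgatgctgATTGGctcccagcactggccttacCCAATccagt
In these stretches no marked motif overlaps another. They are matches of letters, and binding was not measured.

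Total counts ran from 13366558 to 27084259 per library. Levels are given in CPM, counts scaled to effective library size, and they are compared between groups and not between genes, since they are not corrected for length. The Ercc1 check fitted the labels, with 0.0502 to 0.821 CPM in the 12 mutant libraries and 1.92 to 4.86 CPM in the 12 wild-type libraries. Summed footprints of 13 hepatocyte markers were 124076 to 284867 CPM, and the summed level of 10 dendritic cell markers did not exceed 6.28 CPM in any library. The counting of reads that fit several genes is not given in the sources used here. H2-K1, H2-D1 and the H2-Q and H2-T chains are close paralogs, and the F1 mice also carry a second haplotype from FVBN, so the heavy chains are uncertain one by one. Values of all 4 libraries of a group are given in the order of their replicate numbers. The labels do not say whether these numbers link libraries across groups.

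The 4 class II genes varied together over the 24 libraries, and the 6 class I genes did not. Pearson's r of log2 CPM lay between 0.896 and 0.964 for the 6 pairs of class II genes and between -0.34 and 0.79 for the 15 pairs of class I genes. After the group means were removed, the class II pairs still lay between 0.812 and 0.918, while class I pairs lay between -0.20 and 0.78. For each class II gene, the 3 genes most like it among all 12211 tested were the other 3. After them, H2-Ab1 was most like Lipc, the hepatic lipase, at r = 0.82 and Resf1 at r = 0.79. H2-K1 was most like H2-Bl (0.88), another class I chain that may share reads with it, then Cst3 (0.85), Ccdc59 (0.79), H2-Q4 (0.79) and Tbc1d2b (0.74). B2m and H2-D1, which bind each other as protein, had r = -0.30 over all libraries and r = 0.25 after the group means were removed. These coefficients are descriptions over 24 libraries that share groups and scaling, and each carries no test.

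**Figure D1:**
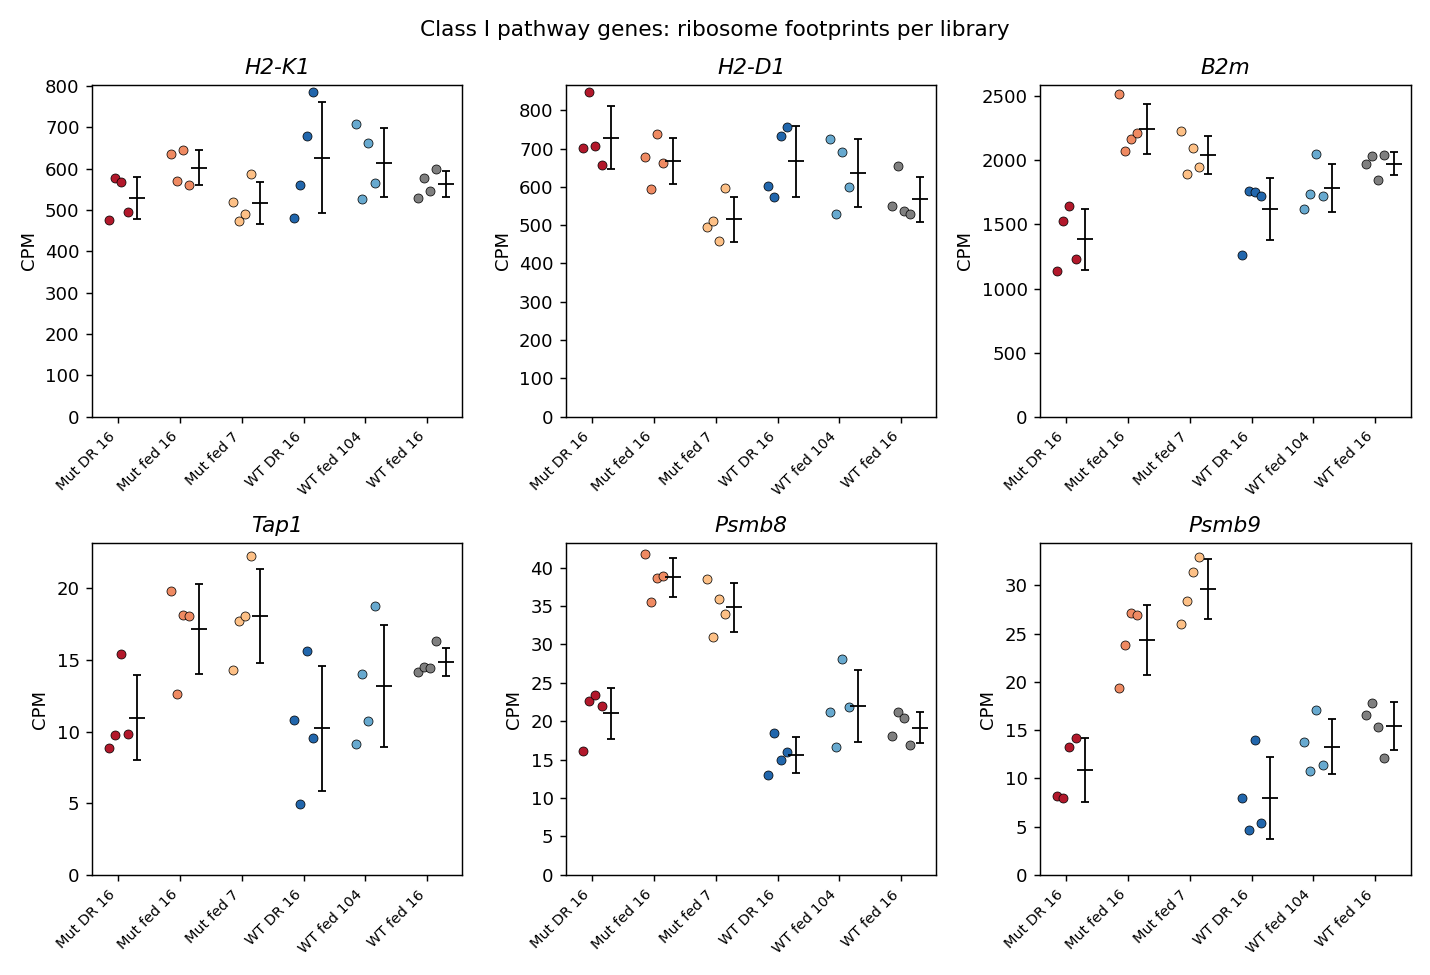
Footprint level in CPM (vertical axes, linear) of the 6 class I genes in the 6 groups; each point is 1 library and the black mark is the mean ± SD of 4. Psmb8 is highest in fed mutants of 16 and 7 weeks, at 30.97 CPM or more in all 8 libraries, and B2m lies lowest in restricted mutants. The highest group mean is 1.21 times the lowest for H2-K1, 1.41 times for H2-D1 and 1.62 times for B2m.

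In fed mutants at 16 weeks, Psmb8, which takes the place of the chymotrypsin-like subunit Psmb5, was the member that rose against fed wild types of that age. Psmb8 had 41.7, 35.5, 38.7 and 38.9 CPM in fed mutants and 18.1, 21.3, 20.4 and 16.9 CPM in fed wild types. Every mutant library lay above every wild-type library, and the fold was 2.02 (log2 1.01 ± 0.15, mean ± SE, adjusted p = 4.58e-05). The share of all tested genes called higher was 5.69%, against 1 of 10 members here, and none was called lower, for which the share was 5.04%. Psmb9, which takes the place of the caspase-like Psmb6, had 19.3, 23.8, 27.2 and 26.9 CPM in fed mutants and 16.6, 17.8, 15.3 and 12.1 CPM in fed wild types. Its groups also did not overlap, but the difference of log2 0.65 ± 0.25 (adjusted p = 0.0976) did not pass. In a fit of the 8 compared libraries alone it did (adjusted p = 0.00502). B2m was the third member without overlap, at 2520.3, 2072, 2168 and 2216 CPM in fed mutants and 1969.9, 2033, 1847 and 2042 CPM in fed wild types, with a log2 difference of 0.19 ± 0.13 (adjusted p = 0.417). Of all tested genes, 10.9% had every mutant library above every wild-type one. For H2-K1 the log2 difference was 0.10 ± 0.13 (adjusted p = 0.716), for H2-D1 0.23 ± 0.13 (adjusted p = 0.28) and for Tap1 0.21 ± 0.25 (adjusted p = 0.68).

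Some other genes that make or load class I peptides were higher in fed mutants too. Of the 10 listed, 2 rose and none fell in fed mutants, with a median log2 difference of 0.13 beside 0.01 over all genes. They were Psmb10, which takes the place of the trypsin-like Psmb7 (log2 0.76 ± 0.19, adjusted p = 0.0101), and Tapbp, tapasin, which bridges the transporter and the heavy chain (log2 0.53 ± 0.15, adjusted p = 0.02). Psmb10 averaged 36.4 ± 3.21 CPM in fed mutants and 21.5 ± 4.52 CPM in fed wild types (SD, n = 4 each). Of the 3 constitutive subunits that Psmb8, Psmb9 and Psmb10 replace, Psmb7 fell (log2 -0.37 ± 0.12, adjusted p = 0.0471), and Psmb5 (log2 -0.24 ± 0.09, adjusted p = 0.105) and Psmb6 (log2 -0.16 ± 0.10, adjusted p = 0.349) did not pass. Of 15 other class I chains 2 rose, H2-T24 (log2 1.36 ± 0.33, adjusted p = 0.00776) and H2-T23, which presents leader peptides to NK cell receptors (log2 0.40 ± 0.13, adjusted p = 0.0437). The transactivator Nlrc5 averaged 1.68 ± 0.951 CPM in fed mutants and 1.11 ± 0.411 CPM in fed wild types, with log2 0.56 ± 0.42 (adjusted p = 0.451). Irf1, an interferon-induced activator of class I and immunoproteasome genes, rose by log2 0.79 ± 0.23 (adjusted p = 0.0273) and was the only one of 13 listed regulators to pass.

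The exchange between immunoproteasome and constitutive subunits was also expressed as a ratio of footprints. Psmb8 over Psmb5 was 0.399 to 0.464 in fed mutants at 16 weeks and 0.165 to 0.212 in fed wild types, with no overlap. Psmb9 over Psmb6 was 0.191 to 0.245 in fed mutants and 0.103 to 0.144 in fed wild types. Psmb10 over Psmb7 was 0.359 to 0.451 in fed mutants and 0.139 to 0.222 in fed wild types. All 3 ratios separated the groups completely, by log2 1.25, 0.82 and 1.15. A 2-sided exact permutation test over 70 assignments gave p = 0.0286 for each, the smallest that 4 against 4 libraries allow, and 0.116 after adjustment over the 77 ratio tests made. The ratios are not corrected for length, so their change between groups is read and not their size.

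**Figure D2:**
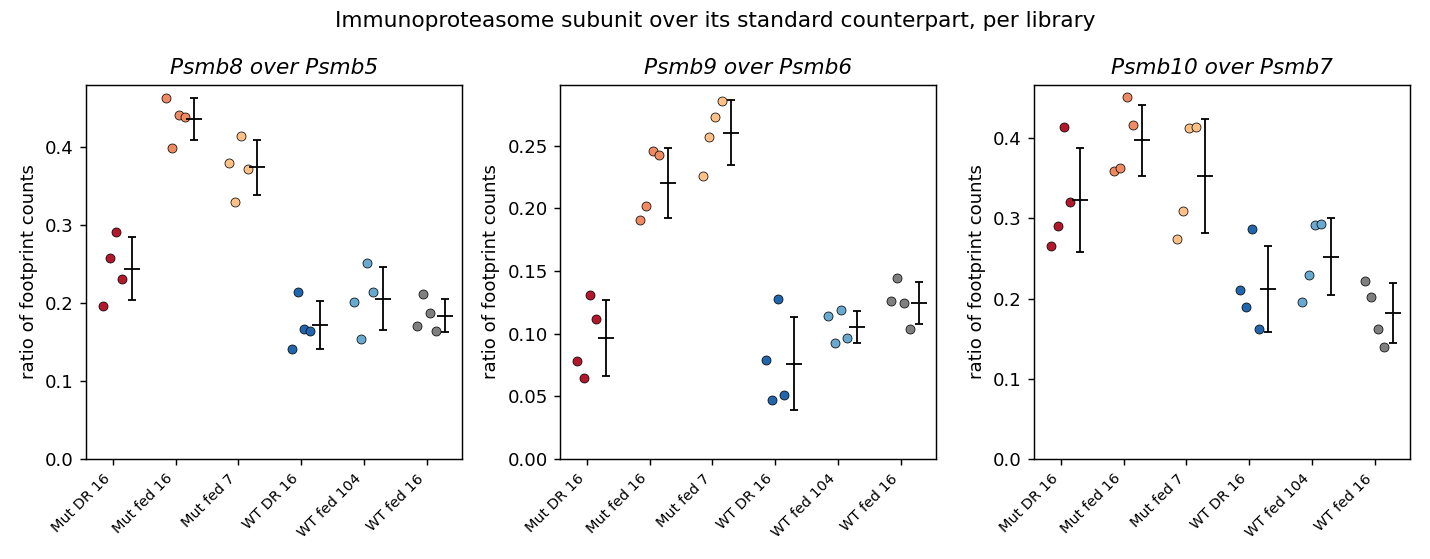
Ratio of footprint counts of each immunoproteasome subunit to the constitutive subunit it replaces (vertical axes, no unit), by group; each point is 1 library and the black mark is the mean ± SD of 4. Psmb8 over Psmb5 lies between 0.399 and 0.464 in fed mutants of 16 weeks and between 0.165 and 0.212 in fed wild types of that age.

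Genes that respond to interferons moved in the same comparison. Of 19 tested genes of the interferon gamma response 4 rose and none fell in fed mutants, among them Gbp3 (log2 1.27 ± 0.24, adjusted p = 0.000774) and Gbp2 (log2 1.31 ± 0.29, adjusted p = 0.0038), guanylate-binding GTPases, and Tgtp1 (log2 1.58 ± 0.38, adjusted p = 0.00792), an immunity-related GTPase. Of 24 genes of the type I interferon response 15 rose and none fell, with a median log2 of 1.49. Their part in the Psmb8 difference was not tested.

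No class II gene passed in fed mutants against fed wild types. H2-Ab1 had 23.3, 20.9, 19.04 and 21.6 CPM in fed mutants and 19.7, 17.9, 22.1 and 30.6 CPM in fed wild types, and H2-Aa had 24.6, 26.99, 29.3 and 26.7 CPM in fed mutants and 28.7, 24.4, 30.3 and 34.9 CPM in fed wild types. The groups overlapped for both. The log2 difference was -0.09 ± 0.23 for H2-Ab1, with a 95% interval of -0.56 to 0.39 (adjusted p = 0.865). It was -0.13 ± 0.20 (adjusted p = 0.742) for H2-Aa, -0.03 ± 0.20 (adjusted p = 0.948) for Cd74 and 0.23 ± 0.27 (adjusted p = 0.67) for H2-Eb1. In bulk liver, fewer cells of a type and less RNA per cell cannot be told apart.

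Markers of macrophages, which make class II molecules, were higher in the same fed mutants. Of 19 macrophage markers 17 rose and none fell, with a median log2 of 1.00, and their summed level was 590.5 to 779 CPM in fed mutants and 302 to 360.3 CPM in fed wild types. The summed level of the 4 class II genes was 133 to 149 CPM in fed mutants and 126 to 175 CPM in fed wild types. Class II footprints per macrophage footprint were thus 0.181 to 0.238 in fed mutants and 0.360 to 0.505 in fed wild types, without overlap. This ratio was formed after the values were seen and is given without a test, and the part of macrophages in the class II levels was not tested. Summed B and plasma cell markers were also higher, at 5.64 to 14.6 CPM in fed mutants and 1.40 to 4.23 CPM in fed wild types, without overlap. Of the 3 tested, 1 was called higher. Dendritic cell sums were 5.42 to 6.28 CPM in fed mutants and 4.35 to 4.92 CPM in fed wild types. T and NK cell and stellate cell sums also lay higher without overlap. Hepatocyte sums lay lower without overlap, and neutrophil, sinusoidal endothelial and cholangiocyte sums overlapped. The part of these cell types was not tested either. Of 8 tested class II accessory genes 3 rose and none fell, all of them endosomal proteases that trim Cd74 or antigens: Lgmn (log2 0.85 ± 0.13, adjusted p = 6.25e-05), Ctss, cathepsin S (log2 0.89 ± 0.17, adjusted p = 0.00115), and Ctsl, cathepsin L (log2 0.78 ± 0.19, adjusted p = 0.00685). All 3 are lysosomal enzymes with roles beyond class II. Ciita was near the limit of detection, at 0.569 ± 0.211 CPM in fed mutants and 0.593 ± 0.204 CPM in fed wild types (log2 -0.04 ± 0.56, adjusted p = 0.979).

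**Figure D3:**
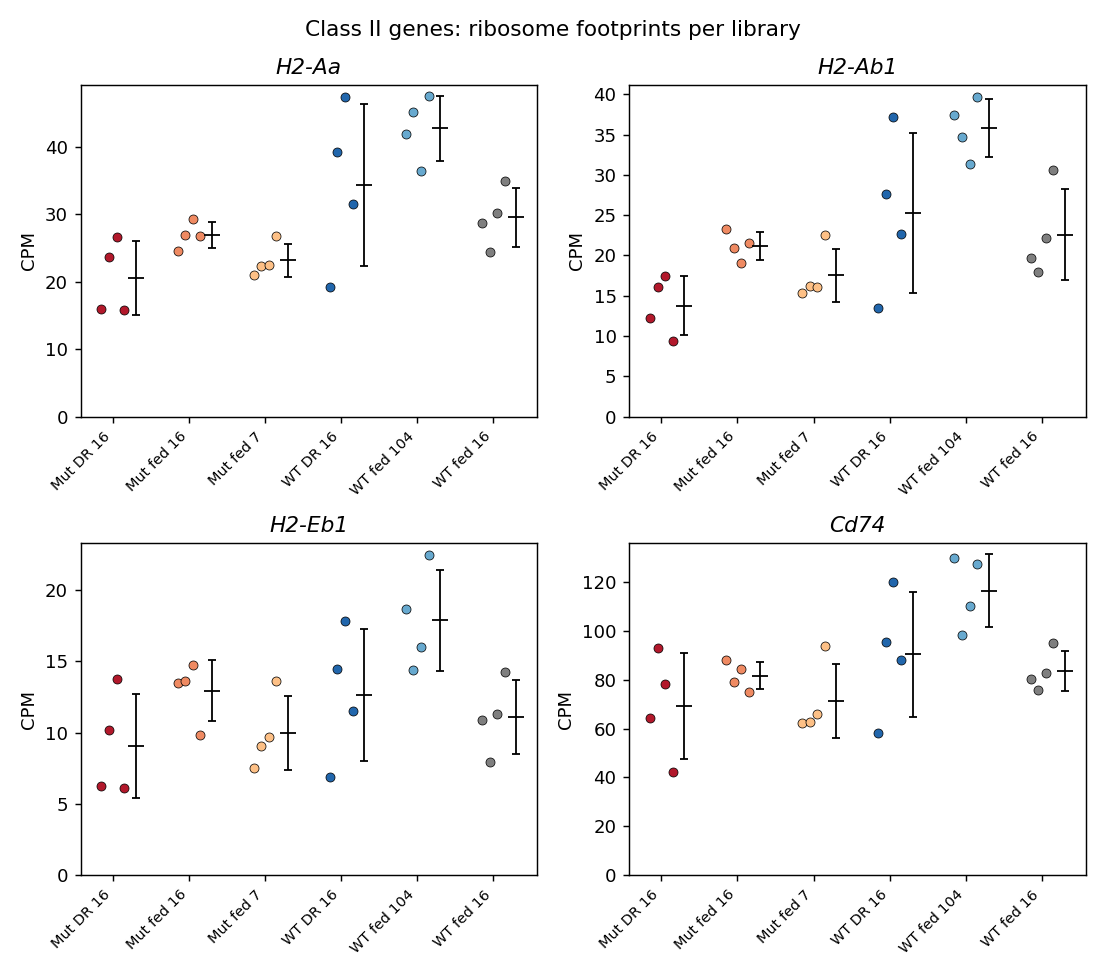
Footprint level in CPM (vertical axes, linear) of the 4 class II genes in the 6 groups; each point is 1 library and the black mark is the mean ± SD of 4. Wild types of 104 weeks are highest for every gene, with H2-Ab1 between 31.3 and 39.6 CPM, against 17.9 to 30.6 CPM in wild types of 16 weeks. By group mean, fed mutants of 16 weeks lie above restricted and fed wild types of that age for H2-Eb1 and below both for the other 3 genes.

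Within the mutants, fed mice of 16 weeks and fed mice of 7 weeks overlapped for all 10 genes. None passed the edgeR quasi-likelihood test, 1 had an unadjusted p under 0.05, as 9.57% of all genes did, and DESeq2 called none. Of all genes, 0.246% were called higher and 0.188% lower. Psmb8 had 38.6, 30.97, 35.9 and 33.9 CPM at 7 weeks, beside the values of 16 weeks above, and the log2 difference was 0.15 ± 0.15 (adjusted p = 0.822). Without wild types of 7 weeks, mutants of that age could not be compared with wild types of the same age. Psmb9 had 25.99, 28.4, 31.3 and 32.9 CPM at 7 weeks, and the log2 difference was -0.28 ± 0.25 (adjusted p = 0.794). The one with the unadjusted p under 0.05 was H2-D1 (log2 0.37 ± 0.13, adjusted p = 0.293), at 679, 593, 737 and 662 CPM at 16 weeks and 495, 511, 458 and 597 CPM at 7 weeks. For the class II genes the log2 difference lay between 0.20 and 0.38, while 2 of 19 macrophage markers rose. Of the accessory genes, Ctss rose (log2 0.90 ± 0.17, adjusted p = 0.0144). Among fed mutants of 7 weeks, replicate 4 lay above the other 3 for all 4 class II genes.

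In fed wild types, the class II genes lay higher at 104 weeks than at 16 weeks, and the class I genes lay between log2 -0.22 and 0.19. H2-Ab1 had 37.5, 34.8, 31.3 and 39.6 CPM at 104 weeks and 19.7, 17.9, 22.1 and 30.6 CPM at 16 weeks. H2-Aa had 41.97, 45.2, 36.4 and 47.5 CPM at 104 weeks and 28.7, 24.4, 30.3 and 34.9 CPM at 16 weeks. Cd74 had 130.1, 98.2, 110.4 and 127 CPM at 104 weeks and 80.3, 75.97, 82.6 and 95.2 CPM at 16 weeks. For these genes and for H2-Eb1, at 14.4 to 22.4 CPM at 104 weeks and 7.90 to 14.2 CPM at 16 weeks, every old library lay above every young one. Of all tested genes, 8.64% separated in that direction. The edgeR quasi-likelihood test nevertheless called none of the 10 members, where 4.75% of all genes were called higher and 4.59% lower. The log2 differences were 0.67 ± 0.23 (adjusted p = 0.0638) for H2-Ab1, 0.53 ± 0.20 (adjusted p = 0.0931) for H2-Aa, 0.70 ± 0.27 (adjusted p = 0.109) for H2-Eb1 and 0.48 ± 0.20 (adjusted p = 0.135) for Cd74. Those 4 had unadjusted p-values of 0.0068, 0.0127, 0.0163 and 0.023 in that order, and no class I member had one under 0.05.

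These calls depended on the fit. In a fit of the 8 compared libraries alone all 4 class II genes passed, with adjusted p from 0.0159 for H2-Ab1 to 0.0265 for H2-Eb1, and DESeq2 called H2-Ab1 alone (adjusted p = 0.0482). H2-Ab1 also passed without replicate 4 of the fed wild types of 16 weeks (log2 0.84, adjusted p = 0.0347).

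Markers of macrophages and of B cells moved with them. Of 19 macrophage markers 12 rose and none fell at 104 weeks, with summed levels of 471 to 619 CPM at 104 weeks and 302 to 360.3 CPM at 16 weeks. Class II footprints per macrophage footprint were 0.324 to 0.468 at 104 weeks and 0.360 to 0.505 at 16 weeks, so these ranges overlapped. All 3 testable B and plasma cell markers rose, among them Igkc, the immunoglobulin kappa constant region (log2 4.75 ± 0.56, adjusted p = 7.78e-06), and the summed level of all 12 was 34.9 to 83.5 CPM at 104 weeks and 1.40 to 4.23 CPM at 16 weeks. Pax5 was at 0 in every library of 104 weeks, and Blk and Ighd in every library of 16 weeks. The part of either cell type in the class II levels was not tested. Of other listed genes, Irf8, a transcription factor of macrophages and dendritic cells, rose (log2 1.02 ± 0.27, adjusted p = 0.0176), as did Lgmn (log2 0.61 ± 0.13, adjusted p = 0.00299). Cd1d1, a class I-like chain that presents lipids, fell (log2 -1.08 ± 0.15, adjusted p = 3.6e-05), with 67.3 ± 10.01 CPM at 104 weeks and 142 ± 7.77 CPM at 16 weeks.

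**Figure D4:**
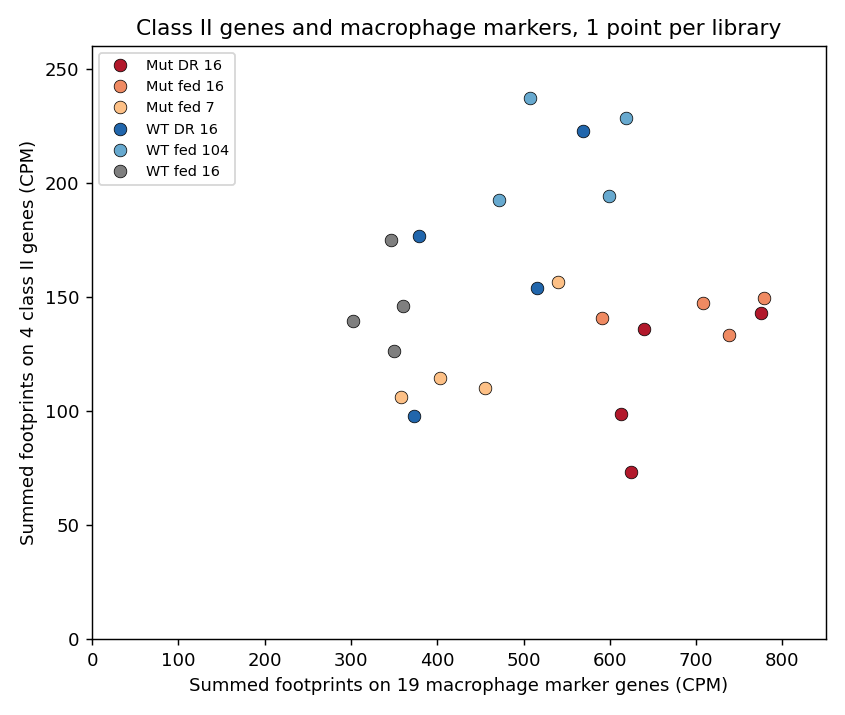
Summed footprint level of the 4 class II genes (vertical axis, CPM) against the summed level of 19 macrophage markers (horizontal axis, CPM), 1 point per library, coloured by group. Fed and restricted mutants of 16 weeks lie to the right, with 590.5 to 779 and 613 to 775 CPM of macrophage markers in that order, at class II levels of 133 to 149 CPM in fed mutants and 73.3 to 143 CPM in restricted mutants, and wild types of 104 weeks, at 193 to 237 CPM, overlap in height with 1 restricted wild-type library.

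Set directly against each other, fed mutants of 16 weeks and fed wild types of 104 weeks differed in both pathways. Psmb8 rose in fed mutants to the values given above, against 21.2, 16.7, 28.1 and 21.8 CPM in old wild types (log2 0.82 ± 0.15, adjusted p = 0.000554). Psmb9 rose as well, against 13.8, 10.8, 17.1 and 11.4 CPM in old wild types (log2 0.87 ± 0.25, adjusted p = 0.0224). H2-Aa fell (log2 -0.67 ± 0.20, adjusted p = 0.0258) and so did H2-Ab1 (log2 -0.76 ± 0.23, adjusted p = 0.0271), with every mutant library below every old library. Of all genes, 9.56% separated with the mutants above, as Psmb8, Psmb9 and B2m did, and 9.64% with the mutants below. Thus 2 of 10 members were called higher and 2 lower, where 6.42% of all genes were called higher and 6.31% lower. Cd74, at log2 -0.51 ± 0.20 (adjusted p = 0.0909), also separated without passing, and it passed in a fit of the 8 compared libraries alone (adjusted p = 0.0149), which called 5 members, while H2-Eb1 overlapped at log2 -0.47 ± 0.27 (adjusted p = 0.281). With each of the 8 libraries left out in turn, Psmb9 passed in 4 fits, H2-Aa in 3 and H2-Ab1 in 3. Their adjusted p then ran from 0.0181 to 0.0669 for Psmb9, from 0.0281 to 0.072 for H2-Aa and from 0.0351 to 0.0758 for H2-Ab1. Of the listed genes, Psme1, a proteasome activator subunit (log2 0.34 ± 0.11, adjusted p = 0.0478), Erap1, which trims class I peptides (log2 0.38 ± 0.12, adjusted p = 0.0387), and Cd1d1 (log2 1.09 ± 0.15, adjusted p = 2.11e-05) were higher in the mutants. Cd1d1 was 1 of 3 called higher among the 15 other class I chains, of which 1 was called lower. Summed macrophage markers were 590.5 to 779 CPM in fed mutants and 471 to 619 CPM in old wild types, and 1 of the 19 rose. All 3 tested B and plasma cell markers fell. The comparisons of fed mutants and of old wild types with young wild types share the young libraries. The levels of those libraries are not part of this contrast, though they entered the filter, scaling and spread of the shared fit.

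In the mutants, Psmb8, Psmb9 and B2m fell under dietary restriction. Psmb8 had 16.2, 22.6, 23.4 and 21.9 CPM in restricted mutants and 41.7, 35.5, 38.7 and 38.9 CPM in fed mutants, a log2 change of -0.88 ± 0.15 (adjusted p = 0.000213). Psmb9 had 8.13, 7.99, 13.2 and 14.2 CPM in restricted mutants and 19.3, 23.8, 27.2 and 26.9 CPM in fed mutants, a change of -1.16 ± 0.25 (adjusted p = 0.00311). B2m had 1136, 1524, 1641 and 1232 CPM in restricted mutants and 2520.3, 2072, 2168 and 2216 CPM in fed mutants, a change of -0.70 ± 0.13 (adjusted p = 0.000746). For these 3 members no library of one group reached into the other, and 9.03% of all genes lay below in the same way. Of all genes, 6.04% were called lower and 5.59% higher, against 3 and 0 of the 10 members. The third immunoproteasome subunit, Psmb10, did not pass (log2 -0.33 ± 0.19, adjusted p = 0.275), and Psmb10 over Psmb7 was 0.266 to 0.414 in restricted mutants and 0.359 to 0.451 in fed mutants, with overlap (log2 -0.31, exact permutation test, p = 0.114, 0.232 after Benjamini-Hochberg adjustment). Psmb8 over Psmb5 was 0.197 to 0.291 in restricted mutants and 0.399 to 0.464 in fed mutants. Psmb9 over Psmb6 was 0.0646 to 0.131 in restricted mutants and 0.191 to 0.245 in fed mutants. Neither of these ratios overlapped (log2 -0.85 and -1.24, exact permutation test, p = 0.0286 each, 0.116 after Benjamini-Hochberg adjustment). Summed hepatocyte markers were 198649 to 238467 CPM in restricted mutants and 134483 to 179055 CPM in fed mutants, without overlap, with 3 of 13 markers called higher and 2 lower, and their part in the falls was not tested. The calls of Psmb8, Psmb9 and B2m held on leaving out any of the 8 libraries and under the 6 other settings tried.

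The heavy chains did not pass the test under restriction, in contrast to their light chain. H2-D1 had 703, 847, 707 and 658 CPM in restricted mutants and 679, 593, 737 and 662 CPM in fed mutants (log2 0.13 ± 0.13, adjusted p = 0.602), and H2-K1 had 475, 578, 567 and 494 CPM in restricted mutants and 635, 570.5, 644 and 559.9 CPM in fed mutants (log2 -0.19 ± 0.14, adjusted p = 0.414). Footprints of H2-D1 over those of B2m were 0.431 to 0.618 in restricted mutants and 0.269 to 0.340 in fed mutants, a log2 difference of 0.83. The exact permutation test gave p = 0.0286, the smallest possible, and 0.116 after adjustment over the 77 ratio tests. In wild types the same ratio was 0.324 to 0.477 under restriction and 0.259 to 0.321 when fed, a difference of 0.52 with those same p-values. H2-K1 over B2m differed by log2 0.52 in mutants and 0.43 in wild types, also with those p-values. B2m also pairs with other class I chains, and of the 15 listed none passed in restricted against fed mutants.

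Tap1 had 8.88, 9.74, 15.4 and 9.86 CPM in restricted mutants and 19.8, 12.6, 18.2 and 18.04 CPM in fed mutants (log2 -0.64 ± 0.25, adjusted p = 0.107). Replicate 3 of the restricted mutants stood above the other 3, and without it Tap1 passed (log2 -0.85, adjusted p = 0.0367). H2-Ab1 had 12.2, 16.02, 17.5 and 9.37 CPM in restricted mutants and 23.3, 20.9, 19.04 and 21.6 CPM in fed mutants, with no overlap (log2 -0.61 ± 0.23, adjusted p = 0.0825), and it passed without the same library (log2 -0.75, adjusted p = 0.0466). Cd74 (log2 -0.23 ± 0.20, adjusted p = 0.504), H2-Aa (log2 -0.39 ± 0.20, adjusted p = 0.228) and H2-Eb1 (log2 -0.50 ± 0.27, adjusted p = 0.253) overlapped between the groups.

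Of the 10 loading genes 2 fell and none rose in restricted against fed mutants. They were Tap2, the partner of Tap1 in the transporter (log2 -0.72 ± 0.17, adjusted p = 0.00745), and Psme2, a proteasome activator subunit (log2 -0.37 ± 0.12, adjusted p = 0.0432). Tap2 averaged 22.4 ± 2.98 CPM in restricted mutants and 36.8 ± 4.58 CPM in fed mutants. None of the 13 regulators passed, Nlrc5 included (log2 -0.54 ± 0.42, adjusted p = 0.459). Of 19 interferon gamma response genes 3 fell and none rose, Gbp4 (log2 -1.61 ± 0.24, adjusted p = 3.71e-05), Iigp1 (log2 -1.19 ± 0.24, adjusted p = 0.00144) and Gbp6 (log2 -1.81 ± 0.56, adjusted p = 0.0343), all interferon-inducible GTPases. Of 24 type I genes 2 fell and 1 rose. Of 19 macrophage markers 1 rose and 1 fell, with summed levels of 613 to 775 CPM in restricted mutants and 590.5 to 779 CPM in fed mutants. Ctsl rose (log2 1.68 ± 0.19, adjusted p = 1.08e-06) and averaged 1298 ± 341 CPM in restricted mutants and 406 ± 31.2 CPM in fed mutants.

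In wild types, Psmb9 was the member that fell under restriction. Psmb9 had 7.98, 4.60, 13.96 and 5.34 CPM in restricted wild types and 16.6, 17.8, 15.3 and 12.1 CPM in fed wild types (log2 -0.95 ± 0.26, adjusted p = 0.0158). Replicate 3 of the restricted group lay within the range of the fed one. The call was lost without replicate 2 of the fed wild types (log2 -0.84, adjusted p = 0.0557), without replicate 4 of the restricted ones (log2 -0.77, adjusted p = 0.0789) and in a fit of the 8 libraries alone (adjusted p = 0.0941). Of all genes, 6.71% were called lower and 5.44% higher. B2m had 1260.3, 1765, 1750.2 and 1719 CPM in restricted wild types and 1969.9, 2033, 1847 and 2042 CPM in fed ones, all restricted libraries lying below (log2 -0.28 ± 0.13, adjusted p = 0.171), as 8.25% of all genes did. Psmb8 stood at log2 -0.30 ± 0.15 (adjusted p = 0.201) and Tap1 at log2 -0.53 ± 0.25 (adjusted p = 0.179). Without replicate 3 of the restricted wild types Tap1 passed (log2 -0.77, adjusted p = 0.0385). Summed hepatocyte markers were 203142 to 284867 CPM in restricted wild types and 180695 to 197682 CPM in fed ones, without overlap as in the mutants. Their part in the class I levels was not tested.

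The class II genes spread widely among restricted wild types. H2-Ab1 had 13.5, 27.6, 37.2 and 22.6 CPM there and 19.7, 17.9, 22.1 and 30.6 CPM in fed wild types (log2 0.16 ± 0.23, adjusted p = 0.704). H2-Aa stood at log2 0.22 ± 0.20 (adjusted p = 0.532), Cd74 at 0.12 ± 0.20 (adjusted p = 0.766) and H2-Eb1 at 0.20 ± 0.27 (adjusted p = 0.7). Replicate 1 was the lowest and replicate 3 the highest of the restricted wild types for each of the 4 genes. Of the listed genes, Psmb7 fell (log2 -0.49 ± 0.12, adjusted p = 0.00738), as did 4 of 19 interferon gamma response genes, among them Gbp4 (log2 -2.07 ± 0.25, adjusted p = 3.28e-06) and Iigp1 (log2 -0.79 ± 0.24, adjusted p = 0.0288). No loading gene and no other class I chain passed, and Ctsl rose (log2 0.75 ± 0.19, adjusted p = 0.00834). Of 19 macrophage markers 3 rose, with summed levels of 373 to 569 CPM in restricted wild types and 302 to 360.3 CPM in fed ones. Of 3 tested B and plasma cell markers 2 rose, with sums over all 12 of 2.65 to 30.8 CPM in restricted wild types and 1.40 to 4.23 CPM in fed ones, and replicates 1 and 3 were again the lowest and the highest of the restricted group. Of 10 stellate cell markers 5 rose and of 10 sinusoidal endothelial markers 2 rose, with none falling. Replicates 1 and 3 were the lowest and the highest for the macrophage, stellate and sinusoidal endothelial sums too. For the dendritic cell sum, replicate 1 was the highest and replicate 3 the lowest. The part of these cell types in the class II levels was not tested.

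**Figure D5:**
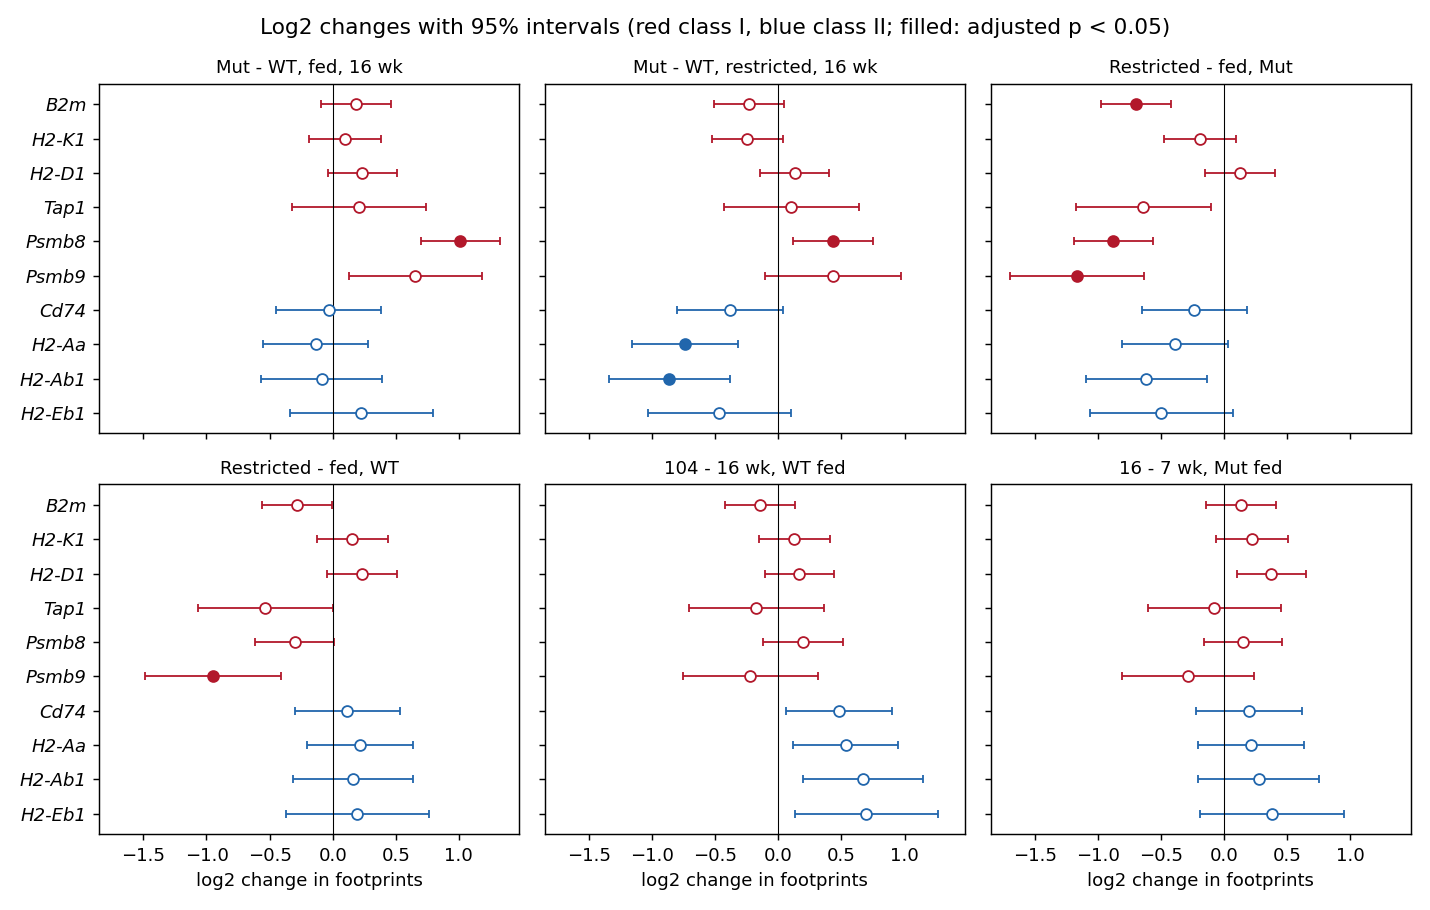
Log2 difference of each of the 10 genes (horizontal axes) with its 95% interval (bars), class I in red and class II in blue, 1 panel per comparison; filled points have an adjusted p under 0.05. Psmb8 is at 1.01 for fed mutants against fed wild types and at -0.88 for restricted against fed mutants. The interaction and the comparison of fed mutants of 16 weeks with wild types of 104 weeks are not shown.

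Whether mutants and wild types responded differently to restriction was tested directly, and no member passed. The interaction, the response of mutants minus that of wild types, was -0.58 ± 0.21 for Psmb8 (unadjusted p = 0.011, adjusted p = 0.211). It was -0.78 ± 0.32 (adjusted p = 0.291) for H2-Ab1, -0.60 ± 0.28 (adjusted p = 0.366) for H2-Aa and -0.42 ± 0.19 (adjusted p = 0.335) for B2m. It was -0.22 ± 0.36 (adjusted p = 0.863) for Psmb9, whose 2 responses were -1.16 ± 0.25 in mutants and -0.95 ± 0.26 in wild types. The edgeR quasi-likelihood test called none of the 10 members, where 0.516% of all genes were called higher and 0.287% lower, 4 had an unadjusted p under 0.05, as 12.7% of all genes did, and DESeq2 called none.

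Under restriction, mutants had more footprints on Psmb8 and fewer on H2-Aa and H2-Ab1 than wild types in the shared fit of all libraries, but none of these calls held in a fit of the 8 compared libraries alone. H2-Ab1 had 12.2, 16.02, 17.5 and 9.37 CPM in restricted mutants and 13.5, 27.6, 37.2 and 22.6 CPM in restricted wild types, a log2 difference of -0.86 ± 0.23 (adjusted p = 0.00946). H2-Aa had 16.02, 23.6, 26.7 and 15.8 CPM in restricted mutants and 19.2, 39.2, 47.4 and 31.5 CPM in restricted wild types, a log2 difference of -0.74 ± 0.20 (adjusted p = 0.0112). Both groups spread widely and overlapped. Both calls held on leaving out each library in turn and were lost in a fit of the 8 libraries alone, with adjusted p = 0.105 for H2-Ab1 and 0.137 for H2-Aa. Cd74 (-0.38 ± 0.20, adjusted p = 0.187) and H2-Eb1 (-0.47 ± 0.27, adjusted p = 0.239) did not pass. Psmb8, at 16.2, 22.6, 23.4 and 21.9 CPM in restricted mutants and 12.96, 18.5, 14.9 and 16.01 CPM in restricted wild types, was higher by log2 0.43 ± 0.15 (adjusted p = 0.044). That call held when 2 of the 8 libraries were left out singly and was lost for the other 6 (adjusted p from 0.0168 to 0.131). It was also lost in the fit of the 8 libraries alone (adjusted p = 0.214), without the filter on low counts (0.0828) and with the replicate number as a block (0.0545). Thus 1 of 10 members was called higher and 2 lower, where 9.38% of all genes were called higher and 8.85% lower.

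Macrophage markers were higher in the same restricted mutants. Of 19, 7 rose and none fell in restricted mutants, with sums of 613 to 775 CPM in restricted mutants and 373 to 569 CPM in restricted wild types. The class II sum was 73.3 to 143 CPM in restricted mutants and 97.7 to 223 CPM in restricted wild types, and class II footprints per macrophage footprint were 0.117 to 0.213 in restricted mutants and 0.262 to 0.467 in restricted wild types. The part of macrophages in these class II levels was not tested. Of 10 sinusoidal endothelial markers 1 rose and 1 fell. Psmb10 rose in restricted mutants (log2 0.70 ± 0.19, adjusted p = 0.0111), as did 4 of 19 interferon gamma response genes, with Gbp3 at log2 1.56 ± 0.25 (adjusted p = 8.13e-05), and 17 of 24 type I interferon genes. Irf2, which competes with Irf1 for its sites, fell (log2 -0.53 ± 0.19, adjusted p = 0.0483). Of the accessory proteases, Ctsl (log2 1.71 ± 0.19, adjusted p = 7.17e-07), Lgmn (log2 0.58 ± 0.13, adjusted p = 0.00238) and Ctss (log2 0.57 ± 0.17, adjusted p = 0.0208) rose.

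Ordered by group mean, Psmb8 and B2m were highest in fed mutants of 16 weeks, Psmb9 and Tap1 in fed mutants of 7 weeks, and all 4 class II genes in wild types of 104 weeks. The highest group mean was 3.72 times the lowest for Psmb9, 2.60 times for H2-Ab1 and 2.48 times for Psmb8. For H2-K1 it was 1.21 times, the smallest of the 10. In the shared fit of all libraries no comparison called H2-K1, H2-D1, Tap1, Cd74 or H2-Eb1. Tap1, Cd74 and H2-Eb1 did pass in some of the other fits given above. Restricted mutants had the lowest mean of B2m and of all 4 class II genes, and restricted wild types had the lowest mean of Psmb8, Psmb9 and Tap1. Of 50 pairs of neighbouring groups in these orders, 48 overlapped. The other 2 were fed mutants of 7 weeks above wild types of 104 weeks for Psmb8, and fed mutants of 16 weeks above fed wild types of 16 weeks for Psmb9.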

How the data were processed

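Per the labels' protocols, RNase I was applied to cycloheximide-treated liver lysate, and the mRNA fragments held by ribosomes were sequenced after removal of ribosomal RNA. The values used are whole read counts for each gene and library, as deposited, with no scaling applied. Tools named in the submitters' processing notes are cutadapt 3.4, Trimmomatic 0.39, Bowtie2 2.4.2, STAR 2.7.0f and STAR 2.7.8a, Subread 1.6.4 and featureCounts, and the build is GRCm38.p6. Neither the annotation, nor the use of strand, nor the handling of reads matching more than 1 gene is stated in the sources used here. A deposited table of reading frames names no genes and was not used.

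The test was the quasi-likelihood F test of edgeR 4.0.16 (R 4.3.3). Of 22429 genes, 12211 passed filterByExpr over the 6 groups. Libraries were scaled by TMM, and a robust fit of all 24 with 1 term per group left 18 residual degrees of freedom, at a biological coefficient of variation of 24.2%. The 8 contrasts were tested 2-sided and adjusted by Benjamini-Hochberg over all tested genes, and a gene with an adjusted p under 0.05 is said to be called. A standard error (SE) is the size of the log2 difference over the root of F. CPM values are given per library or as mean ± SD. Correlations used log2 CPM with a prior count of 2. The script was tested on simulated data first. Alternatives were DESeq2 1.42.0, RLE scaling, scaling without the 10 most abundant genes, no filter, the compared libraries alone, a replicate block and each library left out.

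Members, gene lists and tests were chosen with earlier results of these data known. Every member, Nlrc5 and Ciita were eligible in each contrast, with up to 4 called genes of a list by smallest p, and not every eligible gene is described. The labels number the mice within a group and say nothing of shared litters or days. P-values of the model fits set a difference between groups against the spread between these samples. Those of the exact permutation test rank a difference among the reassignments of the same samples. No pair of libraries in a group agreed within sampling noise (chi-square per degree of freedom 14.4 to 176).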

Additional observations from a re-analysis of the deposited data

Results flagged for a closer look

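In 5 of 60 sets of 4 libraries, 1 library stood apart from the other 3 by Dixon's criterion, which chance gives in about 1 set in 20. B2m was at 1260.3 CPM in replicate 1 of the restricted wild types, against 1719 to 1765 CPM in the other 3. Tap1 was at 15.4 CPM in replicate 3 of the restricted mutants, against 8.88 to 9.86 CPM. It was at 16.3 CPM in replicate 4 of the fed wild types of 16 weeks, against 14.2 to 14.5 CPM. Cd74 was at 93.8 CPM in replicate 4 of the fed mutants of 7 weeks, against 62.4 to 66.0 CPM. In that same library H2-Ab1 was at 22.5 CPM, against 15.4 to 16.2 CPM in the other 3.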

How the results depend on the processing

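Under 6 other settings, 467 results for single members kept their side of the threshold and, within error, their direction, 7 newly passed and 6 no longer did. With only the compared libraries in the fit, the members called became 2 for fed mutants against fed wild types (1 in the shared fit), 4 for wild types of 104 against 16 weeks (0), 0 for restricted against fed wild types (1), 0 for restricted mutants against restricted wild types (3) and 5 for fed mutants against old wild types (4). DESeq2 called 1 for wild types of 104 against 16 weeks. With each library left out in turn the count ran from 3 to 5 for restricted against fed mutants, from 1 to 4 for fed mutants against old wild types, from 0 to 2 for restricted against fed wild types and from 0 to 1 for old against young wild types. The interaction of Psmb9 ran from -0.41 to 0.16, turning its sign without replicate 3 of the restricted wild types, and it was not called either way. With the replicate number as a block, the counts of the 8 contrasts were 1, 0, 0, 1, 3, 2, 4 and 0, the lost call being Psmb8 in restricted mutants against restricted wild types (adjusted p = 0.0545). Deviations from the group means in same-numbered libraries had r from -0.19 to 0.25 (60 pairs, median r = 0.0063, 10 pairs over 0.1). A median near 0 cannot exclude that some libraries are paired, so whether the numbers pair them is not known. Levels per codon could not be computed without protein sequences. Depth limits Ciita and the immune cell lists: 4 of 10 dendritic cell and 3 of 12 B and plasma cell markers passed the filter on low counts.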

Other observations

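Among the class I heavy chains, footprints of H2-D1 over those of H2-K1 were 1.25 to 1.48 in restricted mutants and 1.04 to 1.18 in fed mutants of 16 weeks, without overlap. They were 0.938 to 1.08 in fed mutants of 7 weeks, 0.963 to 1.25 in restricted wild types, 1.00 to 1.06 in wild types of 104 weeks and 0.882 to 1.13 in fed wild types of 16 weeks. The difference between restricted and fed mutants was log2 0.31 (exact permutation test, p = 0.0286, 0.116 after Benjamini-Hochberg adjustment over 77 ratio tests). The sharing of reads between these paralogs was not tested.

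Within class II, the ratio of the invariant chain to the beta chain was not constant over the groups. Cd74 over H2-Ab1 was 4.47 to 5.81 in restricted mutants, 3.48 to 4.44 in fed mutants of 16 weeks, 3.87 to 4.17 in fed mutants of 7 weeks, 3.23 to 4.31 in restricted wild types, 2.83 to 3.52 in wild types of 104 weeks and 3.11 to 4.25 in fed wild types of 16 weeks. Restricted mutants lay above restricted wild types without overlap, by log2 0.43 (exact permutation test, p = 0.0286, 0.116 after Benjamini-Hochberg adjustment over the same tests).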
